A study of Mus musculus with 8 samples.

Results

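The pair described here is spleen from mice labelled TLR7-/-, treated for 7 days with R848 at 1 mg per kg per day or with PBS (Mock). It was chosen by its labels and makes up 2 of the 8 samples of the series, 1 for each treatment. Each sample is RNA of whole spleen pooled from 3 mice, so there is no spread between replicates, nothing could be tested between treatments or strains, and "higher" and "lower" describe these pools alone. In such tissue RNA, fewer cells of a type and less transcript per cell cannot be told apart. The other samples are C57BL/6 wild-type mice, given in the table as the authors' mean of 2 experiments per treatment, and mice labelled IFNAR-/-, with 1 pool per treatment. Which part of *Tlr7* was deleted, and the genetic background of the deficient mice, are not given in the sources used here.

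TLR7 is an endosomal receptor that senses single-stranded RNA and, in the mouse, small imidazoquinolines such as R848 (resiquimod). It signals through the adaptor MyD88, the IRAK kinases and the ubiquitin ligase TRAF6 to NF-kB, to MAP kinases and to interferon regulatory factors. In spleen it is known from plasmacytoid dendritic cells, B cells and macrophages. The comparison asks what R848 does in mice labelled as lacking its receptor.

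A quantitative PCR plate read 84 pathway genes and 5 housekeeping genes. Levels are delta-Ct values in cycles, the Ct of a gene minus the mean Ct of *Hprt1*, *Hsp90ab1* and *Gapdh*, so a higher delta-Ct is less transcript. The response of a gene is the drop in delta-Ct from Mock to R848, a log2 value on which 1 is a 2-fold higher level with R848. Readings later than 35 cycles were deposited as 35, which put a ceiling of 15.10 on the Mock column and 15.63 on the R848 column. The ceilings place the mean reference Ct at 19.90 and 19.37, so reference readings lay 0.53 cycles later in Mock. That gap was 2.50 cycles in the IFNAR-labelled pair. With those means added back, 89 of 89 readings in each column fell on steps of 0.1 cycles (tolerance 0.02), which is the resolution of a response. In the wild-type R848 column no genes shared the highest value, so no ceiling was found there. A gene at the cap in that column would count as measured. So would a gene at the cap in only 1 of the 2 experiments averaged in either wild-type column, and its response could be a bound. The strain label was not checked by its gene: *Tlr7* read 9.20 in Mock and 9.33 in R848, and where its PCR product lies relative to the deletion is not known here.

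Of the 84 genes, 72 lay within 2-fold between Mock and R848. Another 4 read higher with R848 by 2-fold or more (4.76%), 3 read lower by as much (3.57%), and 5 were at the ceiling in both columns, with no direction. The same rule called 38.1% higher and 13.1% lower in wild type, and 53.6% and 2.38% in the IFNAR-labelled pair. Most responses were a few steps of the scale: 60 of the 79 genes of known direction (75.9%) lay within 0.5 cycles of 0, against 29.1% in wild type and 17.3% in the IFNAR-labelled pair. The median size of a response, without regard to sign, was 0.27 among the 78 genes measured below the ceiling in both columns, against 1.18 in wild type (77 genes) and 1.40 in the IFNAR-labelled pair (69 genes).

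In the TLR7-labelled pair the middle of the plate stayed near 0. The median response over all 84 genes was 0.07, a value that turned to -0.10 with *Hprt1* alone as reference and to -0.04 with all 5 housekeeping genes. The middle of the measured genes, the interquartile range, ran from -0.23 to 0.37. Housekeeping genes responded by 0.47 (*Gusb*), 0.17 (*Hprt1*), 0.07 (*Actb*), -0.03 (*Gapdh*) and -0.13 (*Hsp90ab1*). Other choices of reference shifted every response together, by -0.17 with *Hprt1* alone at one end and 0.13 with *Hsp90ab1* alone at the other. The sign of a gene close to 0 therefore depends on the reference, as it does for the 5 genes at -0.03 and the 7 genes at 0.07. The 7 at -0.13 and the 5 at 0.17 come to 0 at one end of that range.

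**Figure D1:**
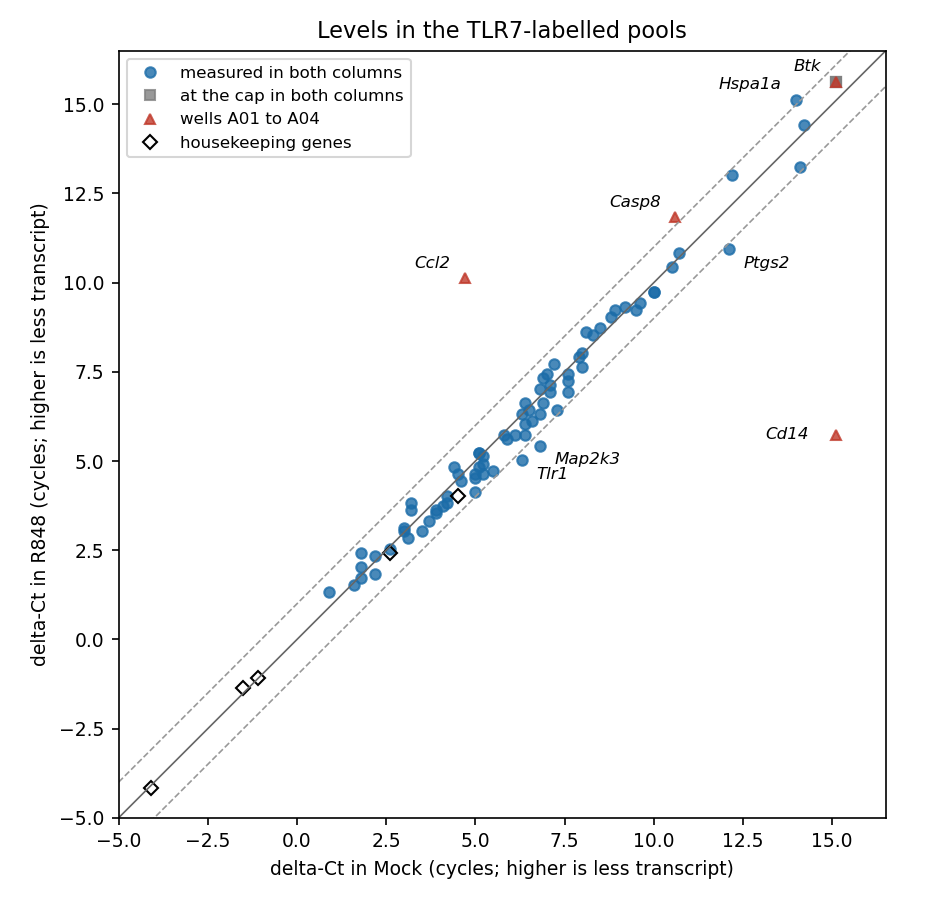
Each point is 1 of 84 pathway genes or 5 housekeeping genes, placed by its delta-Ct in Mock (horizontal, cycles) and in R848 (vertical, cycles) in the TLR7-labelled pools; the solid line marks equal levels and the dashed lines a 2-fold difference. Genes follow the line of equal levels, and *Ccl2* and *Cd14* from the first wells stand furthest off it (4.70 against 10.13, and 15.10 against 5.73).

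Levels in both pools followed each other closely. Across the 78 genes measured in both columns, delta-Ct in Mock and in R848 had a Pearson correlation of 0.97 and a Spearman correlation of 0.96. The same correlations were 0.86 and 0.86 in wild type (77 genes) and 0.87 and 0.86 in the IFNAR-labelled pair (69 genes). These are descriptions across genes, which share their pools and reference readings and are not replicates. Over genes of known direction the SD of the response was 1.31 (79 genes), and it was 0.46 (76 genes) without wells A01 to A04. The corresponding SD without those wells was 1.53 in wild type (75 genes) and 1.51 in the IFNAR-labelled pair (73 genes).

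The first 4 wells of the plate hold *Btk*, *Casp8*, *Ccl2* and *Cd14*, and 3 of the 7 genes at 2-fold or more came from them. Whether the readings in these wells belong to the genes listed for them is not known here, and they may be misplaced, so the values that follow are those of the wells as labelled. *Cd14*, the co-receptor that hands lipopolysaccharide to TLR4 on myeloid cells, was at the ceiling in Mock (delta-Ct 15.10, Ct 35) and read 5.73 in R848 (Ct 25.1). As labelled, that is a response of at least 9.37, or at least 662-fold higher. *Ccl2*, a chemokine that draws monocytes, read 4.70 in Mock (Ct 24.6) and 10.13 in R848 (Ct 29.5), a response of -5.43 or 43.1-fold lower. *Casp8*, a protease that starts apoptosis, read 10.60 in Mock and 11.83 in R848, a response of -1.23 or 2.35-fold lower. *Btk*, a kinase downstream of the B-cell receptor, was at the ceiling in both pools.

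Set against wild type, these wells differed in level as well as in response. *Btk* read 4.10 and 5.67 in wild-type Mock and R848, and *Casp8* 6.00 and 4.77, so both genes stood far lower in the TLR7-labelled pools than in wild type. *Ccl2* read 9.80 and 9.92 in wild type, near the TLR7-labelled R848 reading of 10.13 and far from the Mock reading of 4.70. *Cd14* read 6.15 and 5.02 in wild type, near the R848 reading of 5.73 and far from the Mock reading at the ceiling. In the IFNAR-labelled columns *Btk* and *Casp8* were at the ceiling in both, *Ccl2* only in Mock and *Cd14* only in R848. The adjoining wells A05 and A06 were free of such gaps: *Cd80* read 7.20 and 7.73 and *Cd86* 3.20 and 3.83 in TLR7-labelled Mock and R848. *Clec4e* and *Ly96*, which also mark myeloid cells, had responses of 0.07 and -0.03, so *Cd14* stood alone among the myeloid genes in its size. The part of the wells themselves in these values was not tested.

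**Figure D2:**
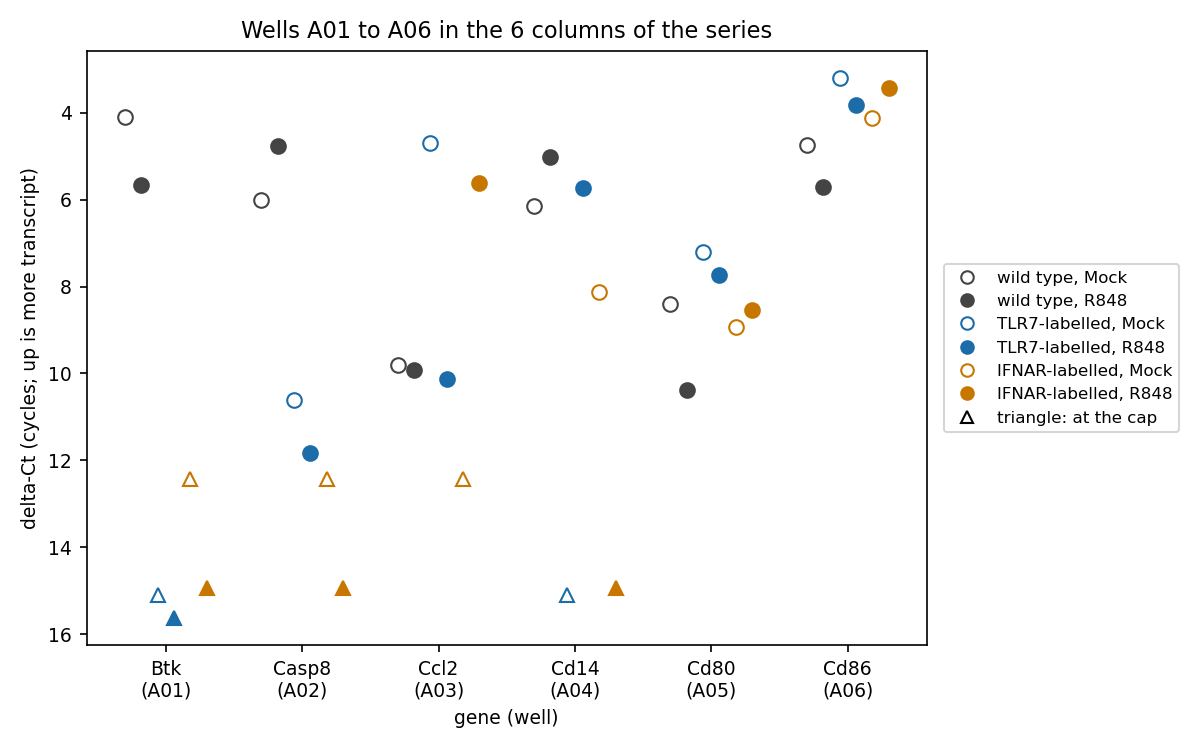
Delta-Ct in cycles (vertical, reversed so that up is more transcript) for the genes in wells A01 to A06 in each of 6 columns, open symbols for Mock and filled for R848, triangles for readings at the ceiling. Readings of 1 gene spread widely between columns in wells A01 to A04, while *Cd80* and *Cd86* stay between 7.20 and 10.37 and between 3.20 and 5.72.

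Outside those wells, 3 genes read at least 2-fold higher and 1 at least 2-fold lower. *Map2k3*, the kinase that activates p38, read 6.80 in Mock and 5.43 in R848, a response of 1.37 or 2.58-fold higher. *Tlr1*, which pairs with TLR2 to sense bacterial lipopeptides, read 6.30 and 5.03, a response of 1.27 or 2.41-fold higher. *Ptgs2*, encoding cyclooxygenase-2, read 12.10 and 10.93, a response of 1.17 or 2.25-fold higher. All 3 kept a response of 1 or more under each choice of reference, with *Ptgs2* at 1.00 with *Hprt1* alone. *Hspa1a*, a heat-shock protein, read 14 in Mock and 15.13 in R848, a response of -1.13 or 2.19-fold lower. Its Ct values of 33.9 and 34.5 lie close to the limit of 35, and leaving out genes above Ct 33 removes it.

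The same 3 higher genes can be set beside wild type. *Map2k3* had nearly the same levels in both strains, with 6.80 and 5.17 in wild-type Mock and R848, and a wild-type response of 1.63. *Tlr1* had a wild-type response of 3.13, from 6.65 to 3.52, and a difference (TLR7-labelled minus wild type) of -1.86. *Ptgs2* was at the ceiling of 13.15 in wild-type Mock and read 13.27 in R848, which leaves its wild-type direction open. *Map2k3* thus comes closest of these to its wild-type response. Just inside 2-fold were *Tollip*, an inhibitor of TLR signalling, *Tnfaip3*, the NF-kB inhibitor A20, and *Ppara*, a nuclear receptor of lipid metabolism, each at 0.87, and *Csf2*, a myeloid growth factor, at -0.83. *Ppara* was read at Ct 34 in Mock and 32.6 in R848, again close to the limit. With *Hsp90ab1* alone as reference 7 genes in place of 4 were at least 2-fold higher.

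Promoter windows are printed for the 3 higher genes outside the first wells, and for *Eif2ak2* and *Cxcl10*, examples of interferon-inducible genes whose responses here were near 0. Each window holds 250 bases before and 50 after the start of the gene, is given 5′ to 3′ on the gene's strand, and comes from RefSeq, build GRCm38.p6. Capitals mark matches to GAAANNGAAA (the core of the interferon-stimulated response element), to TGANTCA (AP-1, the same letters on both strands) or to the kappaB consensus, each searched on both strands.
*Map2k3* (chr11:60931804-60932103, plus strand): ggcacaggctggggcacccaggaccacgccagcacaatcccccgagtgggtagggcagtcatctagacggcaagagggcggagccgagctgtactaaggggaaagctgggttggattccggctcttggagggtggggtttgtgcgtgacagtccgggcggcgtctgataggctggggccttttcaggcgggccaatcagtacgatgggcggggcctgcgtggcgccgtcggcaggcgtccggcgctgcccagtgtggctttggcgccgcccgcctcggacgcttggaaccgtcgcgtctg
*Tlr1* (chr5:64933509-64933808, minus strand): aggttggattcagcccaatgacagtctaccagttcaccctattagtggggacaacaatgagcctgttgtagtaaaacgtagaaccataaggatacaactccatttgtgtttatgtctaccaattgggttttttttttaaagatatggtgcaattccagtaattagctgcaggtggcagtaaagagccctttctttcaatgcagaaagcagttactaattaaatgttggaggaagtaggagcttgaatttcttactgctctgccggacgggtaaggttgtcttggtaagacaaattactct
*Ptgs2* (chr1:150099781-150100080, plus strand): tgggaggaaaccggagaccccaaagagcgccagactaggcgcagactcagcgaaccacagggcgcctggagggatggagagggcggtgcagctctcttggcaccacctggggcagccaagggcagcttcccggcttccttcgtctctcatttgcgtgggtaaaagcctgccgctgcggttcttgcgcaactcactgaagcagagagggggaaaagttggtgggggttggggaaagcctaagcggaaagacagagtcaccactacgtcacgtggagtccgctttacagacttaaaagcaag
*Eif2ak2* (chr17:78882523-78882822, minus strand): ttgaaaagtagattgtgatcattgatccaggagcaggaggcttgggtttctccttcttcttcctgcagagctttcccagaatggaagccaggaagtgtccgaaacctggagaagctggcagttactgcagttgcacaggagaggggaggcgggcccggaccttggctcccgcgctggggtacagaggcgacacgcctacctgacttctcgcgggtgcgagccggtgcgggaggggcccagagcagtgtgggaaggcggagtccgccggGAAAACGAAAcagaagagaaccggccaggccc
*Cxcl10* (chr5:92348840-92349139, minus strand): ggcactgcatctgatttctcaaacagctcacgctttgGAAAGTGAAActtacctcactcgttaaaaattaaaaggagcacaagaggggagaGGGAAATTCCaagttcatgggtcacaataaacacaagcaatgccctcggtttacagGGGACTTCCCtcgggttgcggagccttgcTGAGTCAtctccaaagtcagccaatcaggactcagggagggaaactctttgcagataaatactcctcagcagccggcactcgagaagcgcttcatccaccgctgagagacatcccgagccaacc
*Map2k3*, *Tlr1* and *Ptgs2* hold none of the 3 motifs in these letters. *Eif2ak2* holds the interferon motif GAAAACGAAA at base 269 of its window, after the gene start. *Cxcl10* holds GAAAGTGAAA at base 38, kappaB matches GGGAAATTCC at base 92 and GGGACTTCCC at base 148, and an AP-1 match at base 177, none overlapping another. *Irf1*, an interferon-induced gene with a response of 0.27, is not printed and holds no interferon motif in its windows. A match describes letters and says nothing of binding, and no match says only that these letters are not in the window.

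Promoter windows could be matched for 71 of the 84 genes. The interferon motif was in 4 of them (5.63%, against 3.44% of all 32851 windows), namely *Cxcl10*, *Myd88*, *Eif2ak2* and *Tlr6*, whose responses in the TLR7-labelled pair were 0.07, 0.17, -0.23 and 0.27. The AP-1 motif was in 8 (11.3%, against 7.81%) and the kappaB motif in 15 (21.1%, against 4.51%). A plate gene counted if any of its windows matched, and some have several, while the share over all is per window. The paired percentages are therefore not on the same footing, and the plate shares are raised by this. Genes with either motif had a median response of 0.22, the same for both sets, over 8 and 14 genes of known direction, beside 0.07 over all 79. No gene of known direction with any of these motifs was 2-fold higher or lower, beside 4.76% higher and 3.57% lower over all 84 genes. So few genes carry a motif that this count says little. Of the 7 genes at 2-fold or more, 5 had a matched window, and *Ccl2* and *Cd14* had none.

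By role, 9 of 14 lists had a median response above 0 and 5 below, all between -0.58 and 0.42. With *Hprt1* alone as reference 5 lists stayed above 0. Counts within a list stand beside the whole plate, where 46 of 79 genes of known direction read above 0 (58.2%). Of all 84 genes, 4.76% were at least 2-fold higher and 3.57% at least 2-fold lower. The lists are small, and none was tested against the plate.

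Surface Toll-like receptors sense bacterial lipids and proteins, and 1 of 5, *Tlr1*, was at least 2-fold higher. Their median over 4 genes of known direction was 0.37, against 2.66 in wild type. *Tlr2*, the partner of TLR1 and TLR6, read 5.00 in Mock and 4.53 in R848, a response of 0.47. *Tlr6* read 10.00 and 9.73, a response of 0.27. *Tlr4*, the lipopolysaccharide receptor, read 7.00 and 7.43, a response of -0.43, where wild type went from 9.30 to 4.72. *Tlr5*, the flagellin receptor, was at the ceiling in both pools.

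Endosomal receptors sense nucleic acids, and none of 4 lay 2-fold away. Their median response was 0.07, which turned to -0.10 with *Hprt1* alone, against 1.78 in wild type. *Tlr9*, the receptor of unmethylated CpG DNA, read 4.10 in Mock and 3.73 in R848, a response of 0.37. *Tlr8* read 6.50 and 6.43 and *Tlr3*, the receptor of double-stranded RNA, 10.50 and 10.43, responses of 0.07 each. *Tlr7* itself had a response of -0.13, against 2.53 in wild type. Its wild-type level went from 12 in Mock to 9.47 in R848, so both TLR7-labelled readings were nearer to the wild-type R848 reading.

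Accessory molecules of the receptors were level apart from *Cd14*. *Ly96* (MD-2, the TLR4 partner that holds lipopolysaccharide) read 6.30 and 6.33, and *Ly86* (MD-1, of B cells) 3.00 and 3.03, responses of -0.03 each. *Clec4e* (Mincle, a lectin receptor of macrophages) read 5.2 and 5.13, a response of 0.07. *Pglyrp1*, a peptidoglycan-binding protein of neutrophils, had a response of -0.13. The summed level of the 5 myeloid markers (*Cd14*, *Ly96*, *Tlr4*, *Clec4e* and *Pglyrp1*), in log2 units relative to the reference genes, was -1.91 in Mock and -1.92 in R848, with *Cd14* at the ceiling in Mock. Without *Cd14* it was -1.91 and -2.03. Most of that sum is *Pglyrp1*, without which the other 3 came to -4.39 and -4.42. Among danger signals, *Hmgb1*, a chromatin protein released by damaged cells, read 7.6 and 7.23, a response of 0.37, and *Hspd1*, a mitochondrial chaperone, had a response of 0.07. Beyond such markers the plate holds no gene that defines a lineage of the spleen, so the tissue label could not be checked.

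All 4 adaptors with a TIR domain, which link the receptors to their kinases, read slightly higher with R848, none of them by 2-fold. *Tirap*, which brings MyD88 to the membrane, read 7.6 in Mock and 6.93 in R848, a response of 0.67. *Ticam2* and *Ticam1* (TRAM and TRIF, the adaptors of TLR4 and TLR3) had responses of 0.27 and 0.17. *Myd88* read 7.6 and 7.43, a response of 0.17. The list's median was 0.22, against 2.33 in wild type, and it stayed above 0 under each choice of reference, down to 0.05 with *Hprt1* alone.

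In the IRAK-TRAF6 node, 6 of 8 genes of known direction read higher, beside 58.2% over the plate. None of these 8 was 2-fold away, as for most genes of the plate. Of the 10 members, 2 (*Btk* and *Irak1*) had no known direction. *Tollip* read 5.00 in Mock and 4.13 in R848, just short of 2-fold. *Traf6* read 6.10 and 5.73, and *Irak2* and *Ube2v1*, a partner of the ubiquitin-conjugating enzyme Ube2n, had the same response of 0.37. *Ube2n* and *Ripk2*, a kinase of NOD receptors, were at -0.23, the lowest of the node. *Irak1*, a kinase directly downstream of MyD88, was at the ceiling in both pools. Death-domain genes had a median of -0.23 with *Casp8* and -0.03 without it, and *Tnfrsf1a*, the TNF receptor, was the highest at 0.37. *Tradd*, an adaptor of that receptor, read 3.20 and 3.63, a response of -0.43.

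The NF-kB pathway had 6 of 11 genes above 0, 5 below and none at 2-fold. *Tnfaip3* read 7.30 in Mock and 6.43 in R848, and *Nfkb1*, the p50 subunit, 5.50 and 4.73, responses of 0.87 and 0.77. *Nfkbia*, the inhibitor that holds NF-kB in the cytoplasm, was the lowest, at 0.90 and 1.33 with a response of -0.43. *Rela* and *Rel*, which carry the activating domains, had responses of 0.37 and -0.03. The median of 0.17, beside 0.18 in wild type, came to 0.00 with *Hprt1* alone.

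MAPK, JNK and AP-1 genes had the highest list median, 0.42 over 10 genes, and it was between 0.25 and 0.55 under each choice of reference. The lowest of these values came with *Hprt1* alone. In wild type the median was 1.38. Of the 10, 8 read higher, and *Map2k3* alone was past 2-fold. *Mapk8ip3*, a JNK scaffold, read 6.40 in Mock and 5.73 in R848, a response of 0.67. *Mapk9* (JNK2) read 5.2 and 4.63, a response of 0.57, and *Map2k4*, which activates JNK, and *Jun* were at 0.47 each. The lower ones were *Fos*, the partner of Jun in AP-1, at -0.53 and *Elk1* at -0.43.

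**Figure D3:**
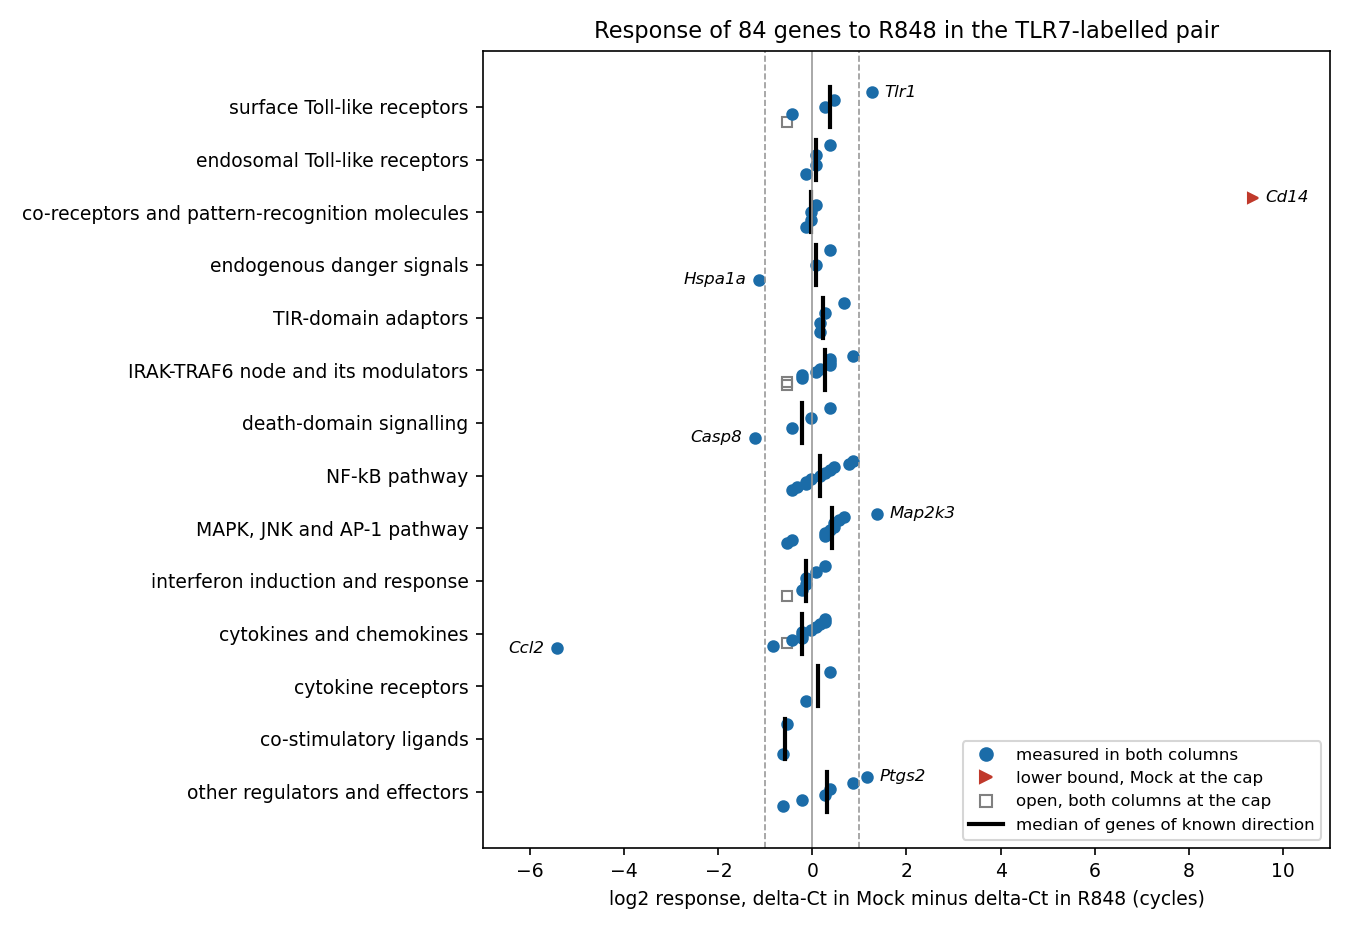
Log2 response (horizontal, cycles) of the 84 genes in the TLR7-labelled pair by role list; circles are measured, the triangle is a lower bound and open squares are genes at the ceiling in both pools. Black bars are list medians, which lie between -0.58 and 0.42, and the 7 genes named are those past the dashed 2-fold lines.

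Genes of interferon induction and response stayed close to 0, between -0.23 and 0.27. *Eif2ak2*, the interferon-inducible kinase PKR, read 8.30 in Mock and 8.53 in R848, a response of -0.23. *Cxcl10*, an interferon-inducible chemokine, read 1.6 and 1.53, and *Irf1*, an interferon-induced transcription factor, 3.10 and 2.83. *Irf3* and its kinase *Tbk1*, which induce interferon beta, had responses of -0.13 each, and *Ifnb1*, encoding interferon beta, was at the ceiling in both pools. The list's median was -0.13, which came to 0.00 with *Hsp90ab1* alone. The wild-type median was also near 0, at 0.03, with *Cxcl10* at -0.27 and *Eif2ak2* at 3.83. In the IFNAR-labelled pair the median was 1.40, with *Cxcl10* at 5.50 and *Eif2ak2* at 4.70.

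Cytokines and chemokines had 4 genes above 0 and 7 below, with a median of -0.23, or -0.13 without *Ccl2*, beside -0.12 in wild type. Apart from *Ccl2*, none of those with a known direction was 2-fold away. *Il6* read 9.50 in Mock and 9.23 in R848, and *Tnf* 5.90 and 5.63, responses of 0.27 each and the highest of the list. *Il10*, an anti-inflammatory cytokine, read 6.40 and 6.63, a response of -0.23. *Il1b* read 4.40 and 4.83, a response of -0.43, beside *Il1a* at 0.17. *Il12a* and *Ifng*, of the T-helper-1 axis, were at -0.03 and -0.23. Of the other T-cell products, *Lta* read 5.80 and 5.73, a response of 0.07. *Il2* read 14.20 and 14.43, at Ct 34.1 and 33.8, close to the limit of 35, so its response of -0.23 says little. *Csf2*, at 12.20 and 13.03, had the lowest response after *Ccl2*, and *Csf3* was at the ceiling in both pools.

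Both co-stimulatory ligands, which antigen-presenting cells show to T cells, read lower with R848. *Cd80* had a response of -0.53 and *Cd86* of -0.63, and both stayed below 0 under each choice of reference, with a list median between -0.75 and -0.45. Wild-type responses were -1.97 and -0.97, in the same direction, and 0.40 and 0.70 in the IFNAR-labelled pair. Cytokine receptors were split, with *Il1r1* at 0.37 and *Il6ra* at -0.13. Among the remaining genes *Ptgs2* was the highest and *Cebpb*, a myeloid transcription factor, the lowest, at 1.80 in Mock and 2.43 in R848 with a response of -0.63.

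Genes that responded in wild type were then followed in the TLR7-labelled pair, whose 2 pools are not shared with wild type. Of 75 genes counted as measured in both pairs, 63 had a smaller response in the TLR7-labelled pair than in wild type, sign aside, and 11 a larger one. No ceiling was found for wild-type R848, so readings at the cap there could not be left out. A response at least 1 log2 unit below the wild-type one was found for 26 genes (34.7%) and at least 1 unit above it for 7 (9.33%). The widest gaps outside the first wells were those of *Tlr4* (-5.01), *Il10* (-4.46), *Eif2ak2* (-4.06) and *Hmgb1* (-3.96). On the other side stood *Ripk2* (1.54), *Cd80* and *Lta* (1.44 each), *Il6* (1.39), *Il2* (1.34), *Il12a* (1.24) and *Nfkbia* (1.14). Wild-type values are means with no spread, so none of these differences was tested.

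The small responses in the TLR7-labelled pair leaned the way of wild type. Of the 32 genes at least 2-fold higher in wild type, 27 read above 0 in the TLR7-labelled pair, with a median of 0.37, and 3 were at least 2-fold higher (*Cd14*, *Map2k3* and *Tlr1*). Of the 11 lower ones, 10 had a known direction, of which 8 read below 0, with a median of -0.33 and none at 2-fold. The 36 genes within 2-fold in wild type had a median of -0.03. Over all 79 genes of known direction, 46 read above 0 (58.2%) and 33 below. The gap between the first 2 medians was 0.70 under every choice of reference, which shifts all genes alike, and with or without wells A01 to A04. The first median was 0.20 at its lowest, with *Hprt1* alone, where 21 of the 32 genes were above 0. With that reference 34 of all 79 genes were above 0 (43.0%). Reference readings came later in Mock than in R848 in both pairs, in wild type at a mean Ct of 21.85 in Mock and at most 18.33 in R848, and the part of that gap in the shared direction was not tested.

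Across the 73 genes measured in both pairs outside the first wells, responses had a Pearson correlation of 0.48 and a Spearman correlation of 0.53. With the wells included (75 genes) these were 0.30 and 0.51. Against the IFNAR-labelled pair they were 0.37 and 0.40 (69 genes). Each is a description across genes that share a plate layout and, within a pair, the reference readings. Of the 4 highest wild-type responses, *Tlr4*, *Il10* and *Eif2ak2* (4.58, 4.23 and 3.83) read below 0 here, and *Hmgb1* (4.33) read 0.37. *Tlr1* and *Tollip*, the next in wild type at 3.13 and 3.08, were among the highest here too, at 1.27 and 0.87. Among the 73 genes, others at the higher end here were *Map2k3*, *Tnfaip3*, *Nfkb1*, *Tirap* and *Mapk8ip3*, with wild-type responses of 1.63, 2.08, 2.33, 2.38 and 1.58. *Ptgs2* (1.17) and *Ppara* (0.87) were also high here but are not among the 73, being at the ceiling in wild-type Mock. The wild-type direction of *Ptgs2* is open, and *Ppara* had a wild-type response of at least 1.38.

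**Figure D4:**
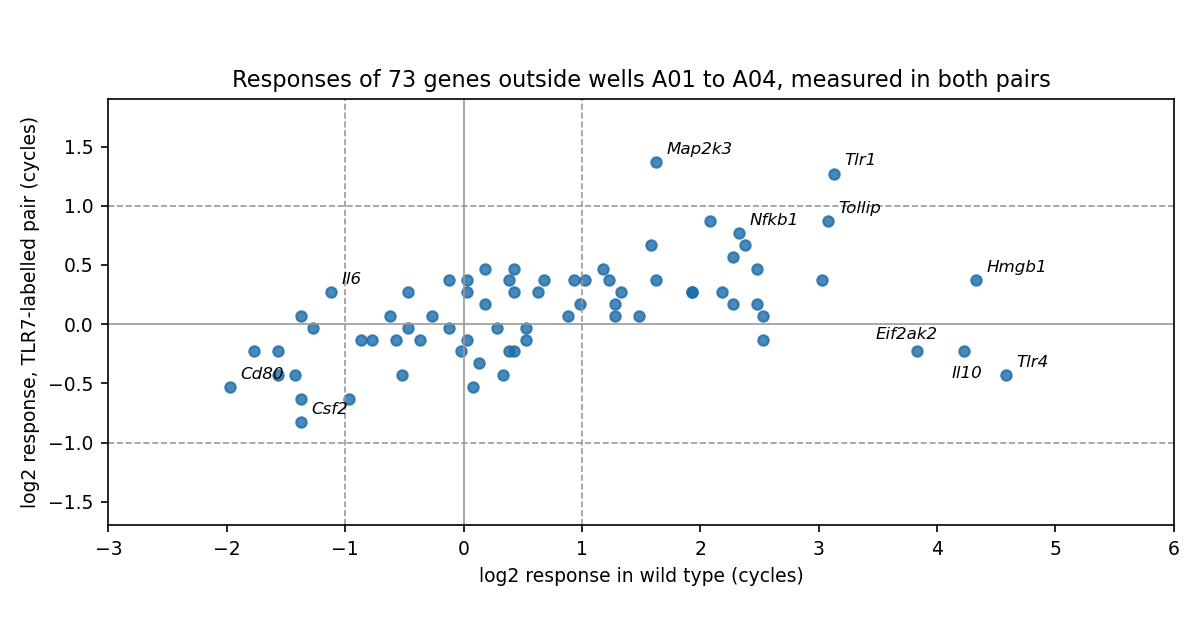
Log2 response in wild type (horizontal, cycles) against that in the TLR7-labelled pair (vertical, cycles) for the 73 genes outside wells A01 to A04 measured in both; dashed lines mark 2-fold. The vertical spread runs from -0.83 to 1.37 and the horizontal one from -1.97 to 4.58, with *Tlr4*, *Il10* and *Eif2ak2* at the far right below 0 and *Hmgb1* above it.

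Levels were then set beside the wild-type columns, the same values by which the sets were chosen. A gene's Mock difference minus its R848 difference equals its TLR7-labelled response minus its wild-type one. With responses near 0 here, a contrast between the Mock and R848 differences is therefore partly built in for the chosen sets. Over the 32 genes higher in wild type, delta-Ct in Mock was lower in the TLR7-labelled pool for 27 genes, which is more transcript. It was lower by a median of 1.5 cycles over all 32. The count is not particular to this set. Mock was also lower for 29 of the 36 genes within 2-fold in wild type and for 9 of the 11 lower ones. With R848 the TLR7-labelled level was below the wild-type level for 18 of the 32, with a median difference of 0.24 cycles. *Il10* is an example, with 11 and 6.77 in wild-type Mock and R848 against 6.40 and 6.63 here, both near the wild-type R848 reading. *Myd88* and *Jun* likewise read 10.65 and 6.75 in wild-type Mock against 7.6 and 3.50 here. *Tlr4* and *Eif2ak2* differed: their readings here lay between the wild-type columns, with *Eif2ak2* at 9.80 and 5.97 in wild type.

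For genes lower in wild type the contrast between Mock and R848 differences went the other way, which their choice by wild-type response partly sets. Over these 11, the TLR7-labelled Mock level was near the wild-type one, with a median difference of -0.30 cycles, and in R848 the median difference was -1.64 cycles, which is more transcript. More transcript in R848 than in wild type was read for 9 of the 11 genes, with *Btk* and *Il2* as exceptions. The same was read for 29 of the 36 genes within 2-fold in wild type. *Cd80* read 8.40 and 10.37 in wild type, *Ripk2* 6.90 and 8.67, and *Il12a* 8.85 and 10.12, and each stood near or above its wild-type Mock level in both TLR7-labelled pools. Among the 9 genes with more transcript than wild type, *Il6* had the widest gap in both pools. It read 12.50 and 13.62 in wild type against 9.50 and 9.23 here. The 36 genes within 2-fold in wild type had a median difference of -0.78 cycles in Mock and -0.72 in R848, a shift shared by both treatments. The mean reference Ct of the wild-type Mock column was 21.85, against 19.90 here, and its part in these level differences was not tested.

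**Figure D5:**
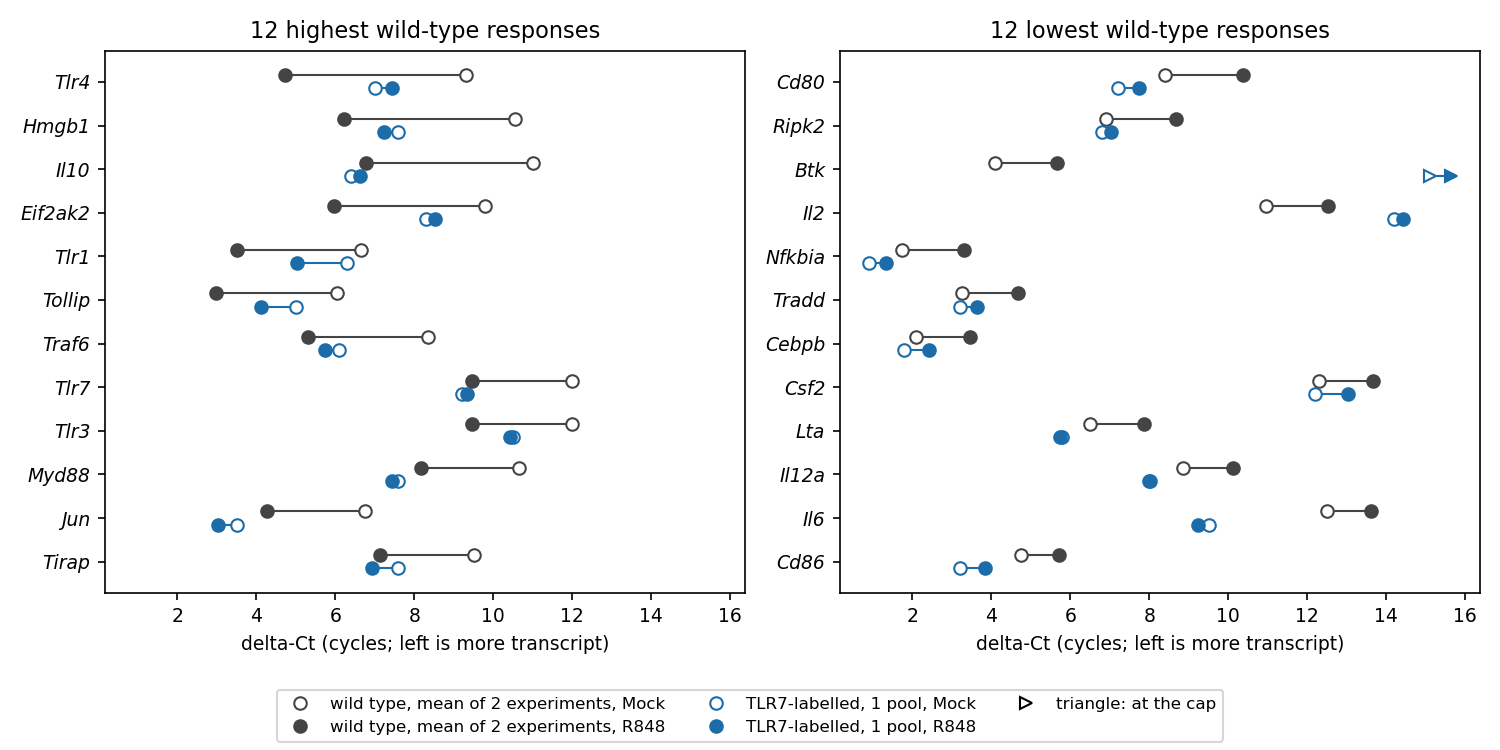
Delta-Ct in cycles (horizontal, left is more transcript) of the genes with the 12 highest and 12 lowest wild-type responses, open symbols for Mock and filled for R848, grey for the wild-type means and blue for the TLR7-labelled pools, triangles at the ceiling. Blue pairs are mostly shorter than grey pairs, and *Il10*, *Tlr7* and *Myd88* lie beside the grey R848 symbol in both treatments. The genes were chosen by their wild-type responses, which favours long grey pairs.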

How the data were processed

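Whole-spleen RNA, pooled from 3 mice per sample, was read on an RT² Profiler plate, per the labels' protocols. Each of 3 strains has a deposited table of delta-Ct, on a log2 scale of cycles, where the mean of 3 reference genes was subtracted, per the file headers and the series' design text. Per the series' design text, the authors set Ct values above 35 or blank to 35. The ratio of R848 to Mock in the authors' deposited table was recomputed and matched for 86 of 89 genes, within 0.01 cycles or 0.005 of a fold. *Cd86*, *Cebpb* and *Chuk* were off by at most 0.014 cycles. The linear form of the same readings fills 6 columns and was not used, and 7 control wells have no value. The name of a table gave its strain, and column headers gave the treatment.

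The response is delta-Ct in Mock minus delta-Ct in R848. The highest delta-Ct of a column, where several genes share it, is the ceiling set by the cap. The wild-type R848 column has no such value, so all its readings were counted as below a ceiling. A fold with only Mock at the ceiling is a lower bound, and genes at the ceiling in both columns, or reading lower with Mock there, have an open direction. A call means 2-fold or more; with 1 pool per treatment there is no test and no p-value, and how exactly a single reading repeats is not known. Python 3.11.15, pandas 2.3.3 and scipy 1.17.1 were used.

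Members and gene lists were chosen with earlier results of these data known, and 1 gene (*Hrb*) was added to a list once the plate was seen. Named are genes at 2-fold or at the ceiling, genes from 0.8 to 1.2 log2 units, the 12 highest and 12 lowest wild-type responses, the Toll-like receptors, each list's extremes, housekeeping genes, wells A01 to A04 and 14 fixed genes. Further list members given as examples were picked with their values known. Alternatives were other reference genes, a median-centred scale, leaving out genes at the ceiling, above Ct 33 or in wells A01 to A04, and thresholds of 1.5-fold and 3-fold. Counting the median over the 78 measured genes alone was added after seeing the data.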

Additional observations from a re-analysis of the deposited data

Results flagged for a closer look

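In 3 cases a gene lay at least 2-fold away in opposite directions in the TLR7-labelled pair and in another strain, all in the first 4 wells and none of them tested. Whether those readings belong to the genes named is not known. *Casp8* had a response of -1.23 in the TLR7-labelled pair and 1.23 in wild type, a difference of -2.46. *Ccl2* had a response of -5.43, against at least 6.80 in the IFNAR-labelled pair, a difference of at least 12.23 in size (-12.23). *Cd14* had a response of at least 9.37, against -6.80 or lower in the IFNAR-labelled pair, a difference of at least 16.17.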

How the results depend on the processing

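No paired analysis was possible because each treatment of this strain has 1 pool and the numbered wild-type experiments are given as means. With *Hsp90ab1* alone as reference 7 genes were at least 2-fold higher in place of 4. Without wells A01 to A04, 1 was at least 2-fold lower in place of 3. At 1.5-fold the counts were 10 higher and 6 lower, and at 3-fold 1 and 1. The median response of 0.07 became -0.10 with *Hprt1* alone, 0.20 with *Hsp90ab1* alone and -0.04 with 5 housekeeping genes, and it was 0.07 over the 78 genes added as an alternative. The SD over genes of 1.31 became 0.79 without genes at the ceiling or without those above Ct 33, and 0.46 without wells A01 to A04. In its place the median absolute deviation was 0.30 and the interquartile range 0.60. Lists with a median above 0 numbered 5 with *Hprt1* alone in place of 9. Genes whose response lay at least 1 unit above the wild-type one numbered 7, and 12 on a median-centred scale, 13 with 5 housekeeping genes, 11 with *Gapdh* alone and 4 with *Hsp90ab1* alone. At 1.5-fold they numbered 13 and at 3-fold 0. Genes at least 1 unit below the wild-type response numbered 26. They numbered 21 on a median-centred scale, with 5 housekeeping genes or with *Gapdh* alone, and 37 with *Hsp90ab1* alone. At 1.5-fold there were 37 of these and at 3-fold 19. No called gene changed sign under the references, centring and filters tried.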

Other observations

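By SD, the spread of responses was somewhat wider where there was less transcript. Among 76 measured genes outside the first wells, split by mean delta-Ct into 3 groups, the SD of the response was 0.38 in the group with most transcript (26 genes), 0.45 in the middle (25 genes) and 0.51 in the group with least (25 genes). Median responses in these groups were 0.12, 0.27 and -0.03. Median sizes, sign aside, were 0.37, 0.27 and 0.27, so they did not widen in the same way.

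Responses also differed along the plate, on which genes are laid out mostly by alphabet. The median response was -0.58 in the first plate row (-0.53 without wells A01 to A04), -0.03 in the next one and between 0.17 and 0.32 in the other rows. In the first row 7 of 10 genes of known direction were below 0, and in the last row of pathway genes 9 of 12 were above 0. The first row holds *Cd80*, *Cd86*, *Cebpb* and *Csf2*, which were also lower in wild type, and the parts of position and of gene were not separated.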
